A study of Mus musculus with 144 samples.

Results

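The genes followed here encode the cleavage and polyadenylation machinery of mouse liver and the proteins that bind the poly(A) tail. They were chosen by name: 34 of the 51912 rows of the deposited gene count table. For their own polyadenylation sites, 137 of the 29199 sites in the authors' filtered list lay in 33 of these genes (27082 sites of that list could be given to a single gene). The nuclear machinery cuts the nascent transcript and adds the tail. CPSF, with its endonuclease Cpsf3, binds the polyadenylation signal, CstF binds downstream of the cut, and cleavage factors I and II guide the choice of site and the release of RNA polymerase II. Poly(A) polymerase then extends a tail that PABPN1 coats in the nucleus and PABPC1 in the cytoplasm, where the PAIP proteins tune its effect on translation. The PAF1 complex travels with RNA polymerase II and supports elongation and 3′ end formation. Some of these factors are known to regulate their own transcripts through the choice of polyadenylation site.

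The series measured liver RNA by QuantSeq, a method that reads the 3′ end of polyadenylated transcripts. The mice are described as male C57BL/6J animals with food ad libitum under 12 h of light and 12 h of dark. Wild-type mice gave 3 kinds of RNA: total RNA, nuclear RNA (hypotonic washes, then centrifugation through a sucrose cushion) and polysomal RNA (sucrose gradients with cycloheximide). Bmal1-/- mice, which lack the clock transcription factor BMAL1, gave total RNA. Livers were taken at 6 zeitgeber times (ZT, counted in hours from lights on), ZT2, ZT6, ZT10, ZT14, ZT18 and ZT22, with 6 libraries per time in each of these 4 sets. A set thus holds 36 libraries, and there are 144 in all. The labels give neither ages nor which part of the Bmal1 gene was altered, and do not say that libraries came from separate animals. The p-values therefore measure only the spread between these libraries, which may be technical.

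The summed gene counts of a library lay between 1662449 and 14281894, with medians of 7749864 for wild-type total, 3993642 for nuclear, 5058210 for polysomal and 7875181 for Bmal1-/- RNA. Libraries labelled Bmal1-/- still gave counts for Arntl, the symbol of Bmal1, at 11.1 CPM ± 2.72 (SD, n = 36), against 7.01 ± 5.66 (SD, n = 36) in wild-type total RNA. Where these tags lie relative to the altered part was not tested, so they do not check the label. All 6 hepatocyte markers were counted in each set of libraries, with summed levels from 18494.7 to 116210 CPM. The nuclear RNAs Malat1 and Neat1 summed to a median of 2059 CPM in wild-type total RNA, 2720 CPM in nuclear RNA and 57.5 CPM in polysomal RNA. In nuclear RNA Neat1 was higher than in total RNA (log2 change 3.06) and Malat1 was lower (-0.32). Markers of lung, pancreas and fat summed to at most 835 CPM, in polysomal RNA, with Sftpc and Prss2 at 0 in wild-type total RNA and Sftpc at 0 in Bmal1-/-. Among the libraries that stood apart was a wild-type total library at ZT2 (replicate 4). Its median correlation with the other libraries of its set was 0.842, against 0.956 for the set. A polysomal library at ZT22 (replicate 1) was the lowest of its set, at 0.847 against 0.922. By replicate number, polysomal replicates 1 and 3 both had a median of 0.905, and only replicate 1 was left out as an alternative. A Bmal1-/- library at ZT22 had Xist above 100 CPM, which goes against the stated sex. Replicates 1 to 3 and 4 to 6 were also analysed apart, although the labels name no batch.

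Levels are CPM (counts scaled to a common library total) adjusted by TMM factors, and changes are log2 ratios with their standard error (SE). Adjusted p means edgeR's quasi-likelihood test with Benjamini-Hochberg adjustment over all genes tested, with a threshold of 0.05. Because each transcript gives counts at its 3′ end, no length correction applies, and levels are compared here between samples and not between genes. In bulk tissue, fewer cells of a type and less RNA per cell cannot be told apart. The spans of 14 of the 34 genes overlap another gene's span: Cpsf1, Cpsf3, Cpsf7, Fip1l1, Cstf1, Cstf2, Cstf2t, Pcf11, Papolg, Rbbp6, Ssu72, Zc3h14, Paip2 and Cdc73. Their counts are uncertain to that extent, since the strand setting of the counting is not given in the sources used here. Pabpc1 has near-identical copies, so its counts are uncertain too.

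The fractions compare the level of each transcript relative to the other RNA of its own fraction. They do not give how much of a transcript lay in each part of the cell. In nuclear RNA the transcripts for the nuclear poly(A) binding protein Pabpn1 and for the CPSF scaffold symplekin (Sympk) stood far above their levels in total RNA. Those for Xrn2, the exonuclease that ends transcription, and for Zc3h14, a poly(A) binding protein of the nucleus, fell. Of the 34 genes, 26 passed the test between nuclear and total RNA, where 83.8% of all 11864 genes tested did. They were 10 higher (41.6% of all genes) and 16 lower (42.1%). The median log2 change of the 34 genes was -0.18, and that of all genes tested was -0.0069. All 34 passed the filter on low counts here and in each comparison of levels below.

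In the 36 wild-type total libraries Pabpn1 lay between 45.6 and 135 CPM, with a median of 84.1. In the 36 nuclear libraries it ran from 212 to 1142 CPM with a median of 550. Each nuclear library was above each total library. Its log2 change was 2.80 (SE 0.11, adjusted p 3.09e-35), from a mean of 81.7 to 594 CPM. Sympk ran from 1.65 to 8.89 CPM (median 5.72) in total RNA and from 12.9 to 31.4 CPM (median 22.3) in nuclear RNA, again without overlap. Its log2 change was 1.95 (SE 0.09, adjusted p 1.42e-30). Counted by its polyadenylation sites, the rise of Sympk was smaller, as given further on.

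Xrn2 was lower in nuclear than in total RNA, without overlap between the sets of libraries. It ran from 49.2 to 104 CPM (median 71.4) in total RNA and from 13.2 to 43.8 CPM (median 22.8) in nuclear RNA, a log2 change of -1.66 (SE 0.07, adjusted p 5.1e-34). Zc3h14 went from a median of 18.9 to 6.00 CPM, and 35 of 36 nuclear libraries lay below the lowest total library. Its log2 change was -1.54 (SE 0.09, adjusted p 5.65e-25). Leo1, a subunit of the PAF1 complex, changed by -1.54 as well (SE 0.13, adjusted p 4.47e-18), from a median of 17.5 to 6.00 CPM, and its ranges overlapped. The gene count of Ssu72, a phosphatase of the RNA polymerase II tail that acts with CPSF, fell most of all, by 1.91 on the log2 scale (SE 0.06, adjusted p 1.67e-39). That fall is one of the gene row. Counts summed over its sites, which include an upstream site used most in nuclear RNA, did not show it, as given further on.

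By role, the nuclear changes were mixed within most complexes. CPSF had 3 members higher (Sympk, Wdr33 and Cpsf4), 3 lower (Cpsf2, Cpsf3 and Fip1l1) and Cpsf1 without a call. The endonuclease subunit Cpsf3 fell from a mean of 39.0 to 20.6 CPM (log2 change -0.96, SE 0.07). In cleavage factor I, which binds upstream of the cut as NUDT21 with CPSF6 or CPSF7, the paralogs Cpsf6 and Cpsf7 rose side by side. Cpsf6 went from 20.8 CPM ± 3.02 to 42.8 CPM ± 16.7 (SD, n = 36 each; log2 change 1.0, SE 0.09, adjusted p 2.85e-16). Cpsf7 went from 9.17 CPM ± 3.34 to 18.5 CPM ± 7.72 (log2 change 0.98, SE 0.12). Their partner Nudt21 was lower by gene counts (log2 change -0.35, SE 0.08). Both members of cleavage factor II were lower in nuclear RNA: Pcf11, which helps dismantle the elongating polymerase, at -0.75 (SE 0.11) and the kinase Clp1 at -0.49 (SE 0.10).

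In CstF the paralogs that bind the downstream element were both lower in nuclear RNA, Cstf2 by a log2 change of -0.84 (SE 0.09) and Cstf2t by -0.70 (SE 0.11). Cstf1 and Cstf3 did not pass, at 0.08 and 0.09. Of the poly(A) polymerases, Papola was lower (-0.48, SE 0.06) and the level of Papolg differed by -0.01 (SE 0.14, not called). Among the cytoplasmic poly(A) binding proteins Pabpc4 rose from 33.7 to 77.3 CPM (log2 change 1.16, SE 0.10, adjusted p 2.06e-18), with 32 of 36 nuclear libraries above the highest total library. Its paralog Pabpc1 rose from 347 to 432 CPM (0.27, SE 0.09). In nuclear RNA the site counts of Pabpc1 lie mostly at a site near the gene start, and the only site of Pabpc4 lies near its start, as given further on. Which reads the gene rows count is not known. These rises are therefore not shown to be rises at the annotated gene end. The PABP partners Paip1, which stimulates translation, and Paip2b, which represses it, fell by 0.94 and 1.12 on the log2 scale, while Paip2 did not pass (-0.22, SE 0.11, adjusted p 0.0539). In the PAF1 complex Paf1 (0.81) and Ctr9 (0.37) were higher and Leo1 and Cdc73 (-0.83) lower. The paralogs Scaf4 and Scaf8, which bind the polymerase and restrain early polyadenylation, showed -0.01 (SE 0.08) and -0.13 (SE 0.11) and no call by gene counts. In replicates 4 to 6 alone the nuclear calls were lost for Pabpc1 (0.12, adjusted p 0.410), Clp1 (-0.24, adjusted p 0.0984) and Fip1l1 (-0.12, adjusted p 0.207).

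**Figure D1:**
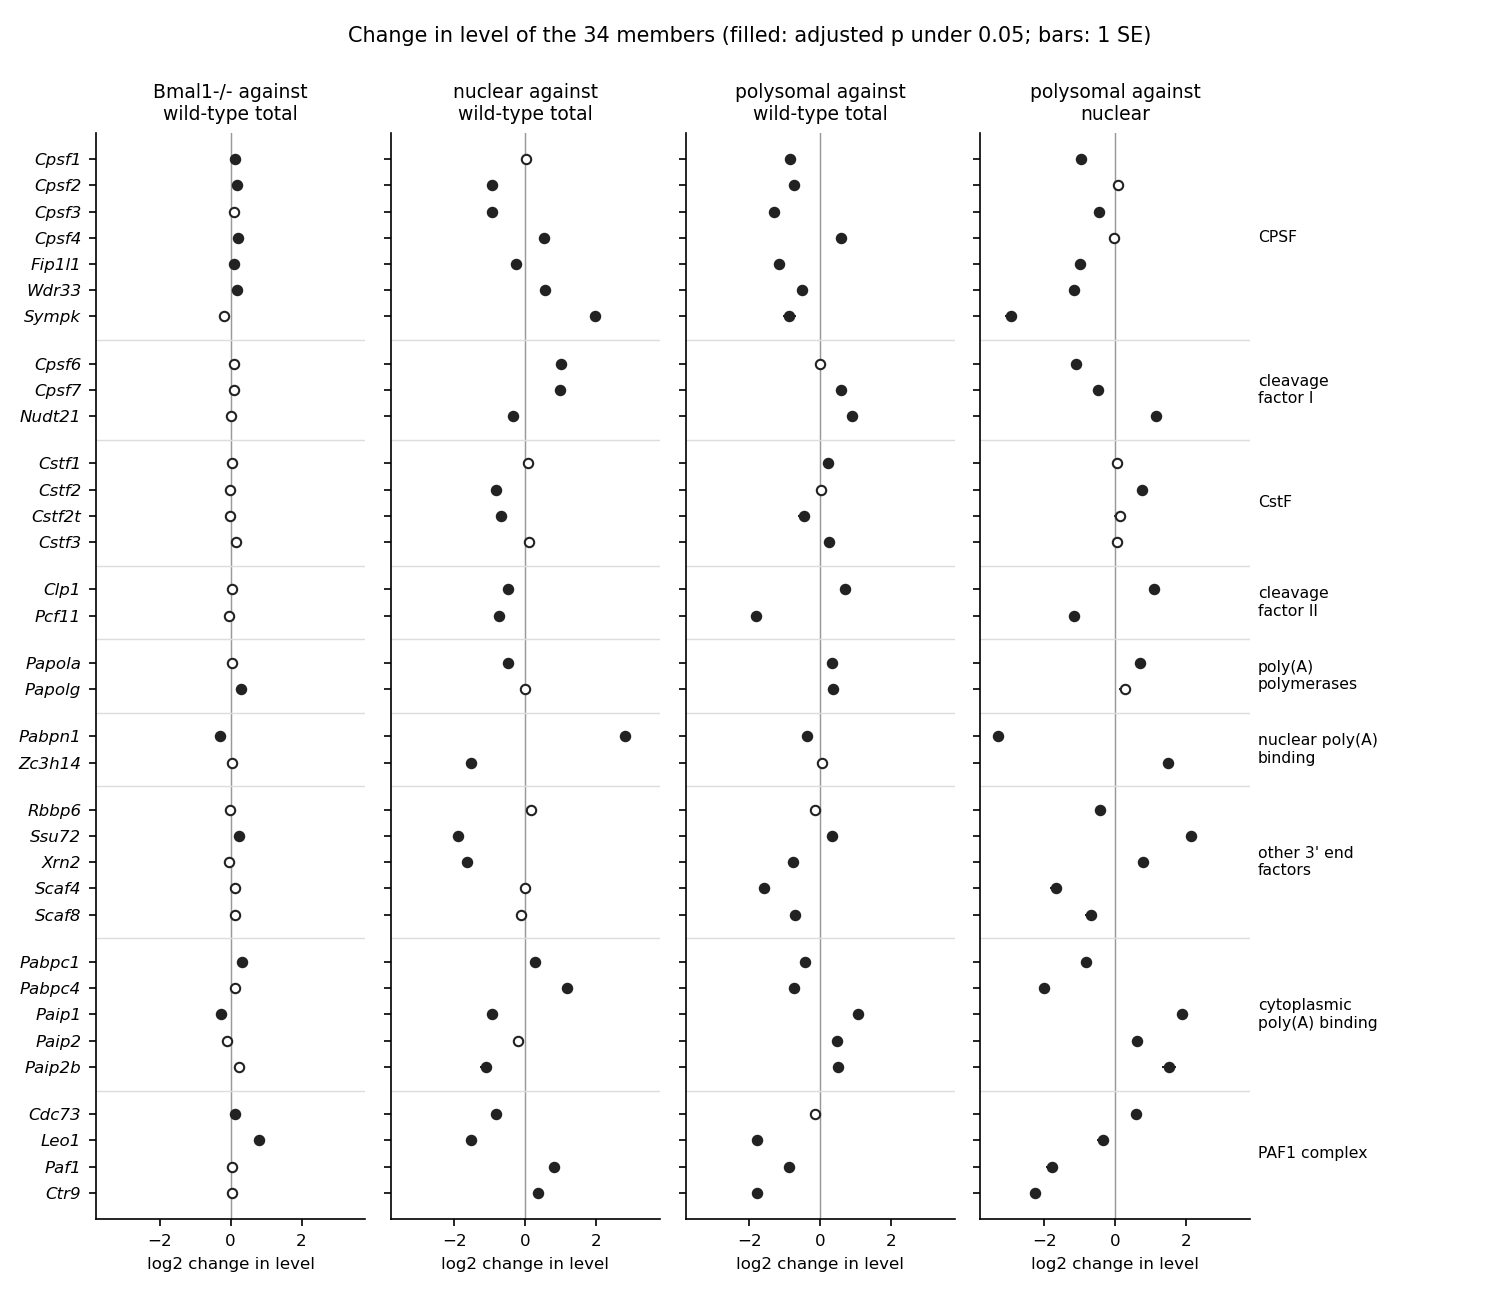
Log2 change in level of each of the 34 genes in the 4 comparisons (x axis), with 1 SE as bars and filled points for adjusted p under 0.05, ordered by role. Most bars are shorter than their points. Pabpn1 (2.80) and Sympk (1.95) lie farthest to the right for nuclear against total RNA, and Pcf11 (-1.81), Ctr9 (-1.80) and Leo1 (-1.78) farthest to the left for polysomal against total RNA.

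The polysomal fraction holds transcripts loaded with ribosomes. There the transcripts of Paip1 and of the cleavage factor I core Nudt21 rose, while those of Pcf11 and of 3 of 4 PAF1 complex subunits fell. Of the 34 genes, 29 passed the test between polysomal and total RNA, where 76.1% of all 11556 genes did. They were 12 higher (38.4% of all genes) and 17 lower (37.6%), and their median log2 change was -0.27 against 0.01 over all genes tested. Malat1 and Neat1 were both lower in polysomal RNA (log2 changes of -5.15 and -4.27), and 2 of 3 red cell markers were higher, with sums of 969 to 9392 CPM against 333 to 5785 CPM in total RNA. All 3 mitochondrial RNAs were lower, with sums of 7715 to 26747 CPM against 20207 to 59254 CPM, as were 4 of 5 stellate, 3 of 5 endothelial and 4 of 6 Kupffer cell markers (2 Kupffer cell markers were higher). Of 5 tested lung, pancreas and fat markers 2 were higher and 1 lower. The part of such differences in the values of these genes was not tested.

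Paip1 ran from 21.4 to 46.4 CPM (median 29.5) in total RNA and from 32.9 to 88.8 CPM (median 62.7) in polysomal RNA. In 30 of 36 polysomal libraries it was above the highest total library, and its log2 change was 1.05 (SE 0.07, adjusted p 8.33e-22). Nudt21 ran from 15.4 to 30.8 CPM (median 21.0) in total RNA and from 23.6 to 57.1 CPM (median 40.0) in polysomal RNA. Here 32 of 36 polysomal libraries lay above all total libraries, with a log2 change of 0.90 (SE 0.07, adjusted p 1.54e-18). Clp1 rose by 0.70 (SE 0.12, adjusted p 4.11e-07), from 6.89 to 11.4 CPM. Cpsf4, a zinc finger subunit of CPSF that contacts the polyadenylation signal, rose by 0.59 (SE 0.10, adjusted p 2.95e-07), and in replicates 1 to 3 alone by 0.33 (adjusted p 0.0650).

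Pcf11, Ctr9 and Leo1 had the lowest changes by gene counts, within 1 SE of one another. Pcf11 ran from 10.7 to 29.4 CPM (median 20.3) in total RNA and from 1.68 to 17.1 CPM (median 5.22) in polysomal RNA, and 35 of 36 polysomal libraries were below the lowest total library. Its log2 change was -1.81 (SE 0.12, adjusted p 6.93e-23). Ctr9, the scaffold of the PAF1 complex, fell from a median of 28.2 to 7.92 CPM (log2 change -1.80, SE 0.13, adjusted p 5.66e-21), with 33 of 36 polysomal libraries below all total libraries. By summed sites, scaled by their own factors, the change was -2.05 for Ctr9 and -1.21 for Pcf11. Leo1 fell from a median of 17.5 to 4.96 CPM (log2 change -1.78, SE 0.13, adjusted p 5.13e-21), and Paf1 by 0.88 on the log2 scale (SE 0.13). Cdc73, the parafibromin subunit, did not pass at -0.14 (SE 0.07, adjusted p 0.0752), but was called lower with DESeq2 (-0.23, adjusted p 0.00229) and by summed sites (-0.62, adjusted p 9.44e-06).

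Scaf4 ran from 5.15 to 14.3 CPM (median 10.9) in total RNA and up to 10.3 CPM (median 3.17) in polysomal RNA, where 1 library held 0 counts, which allows a level of up to 1.27 CPM there (3 counts). Its log2 change was -1.58 (SE 0.16, adjusted p 1.12e-14). Its paralog Scaf8 fell by 0.72 on the log2 scale (SE 0.12). In CPSF 6 of 7 members were called lower, where 37.6% of all genes were, and Cpsf4 was higher. The call for Sympk among these was lost in replicates 1 to 3 alone and by summed sites, as given further on. Cpsf3 changed by -1.30 (SE 0.13), Fip1l1, the subunit that recruits the polymerase, by -1.16 (SE 0.08), Cpsf1 by -0.85 (SE 0.11) and Wdr33, which reads the polyadenylation signal, by -0.51 (SE 0.09).

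For other paralogs the polysomal values stand side by side, and differences within a pair were not tested. Cpsf7 rose (0.58, SE 0.12) and Cpsf6 stayed without a call (-0.01, SE 0.07). Cstf2t fell (-0.47, SE 0.16, from 11.6 to 8.61 CPM) and Cstf2 showed 0.02 (SE 0.11, no call). The poly(A) polymerases both rose, Papola from 76.7 to 96.0 CPM (0.33, SE 0.05) and Papolg from 2.93 to 3.83 CPM (0.36, SE 0.14). The translational repressors Paip2 (0.48, SE 0.12) and Paip2b (0.51, SE 0.15) both rose too. With DESeq2 9 members were higher and 19 lower in place of 12 and 17. Its scaling also moved the median of all genes from 0.01 to -0.07. The share of all called genes that were higher went from 50.5% to 45.4%. The calls for Papolg, Cstf1 (0.23) and Cstf3 (0.23) were lost, Cdc73 and Rbbp6 (-0.24, adjusted p 0.0083) were called lower, and those for Cstf1 and Cstf3 were also lost without polysomal replicate 1. The poly(A) binding proteins fell by gene counts, Pabpc1 from 347 to 260 CPM (-0.44, SE 0.11), Pabpc4 from 33.7 to 20.01 CPM (-0.75, SE 0.12) and Pabpn1 from 81.7 to 62.3 CPM (-0.39, SE 0.10). Most polysomal site counts of Pabpc1 lie at a site near its start, as given further on. In replicates 1 to 3 alone the calls were lost for Pabpc1 (-0.23, adjusted p 0.131), Pabpc4 (-0.28, adjusted p 0.0658), Sympk (-0.37, adjusted p 0.238), Cstf2t (-0.11, adjusted p 0.645), Papolg (0.31, adjusted p 0.198) and Paip2b (0.29, adjusted p 0.217).

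**Figure D2:**
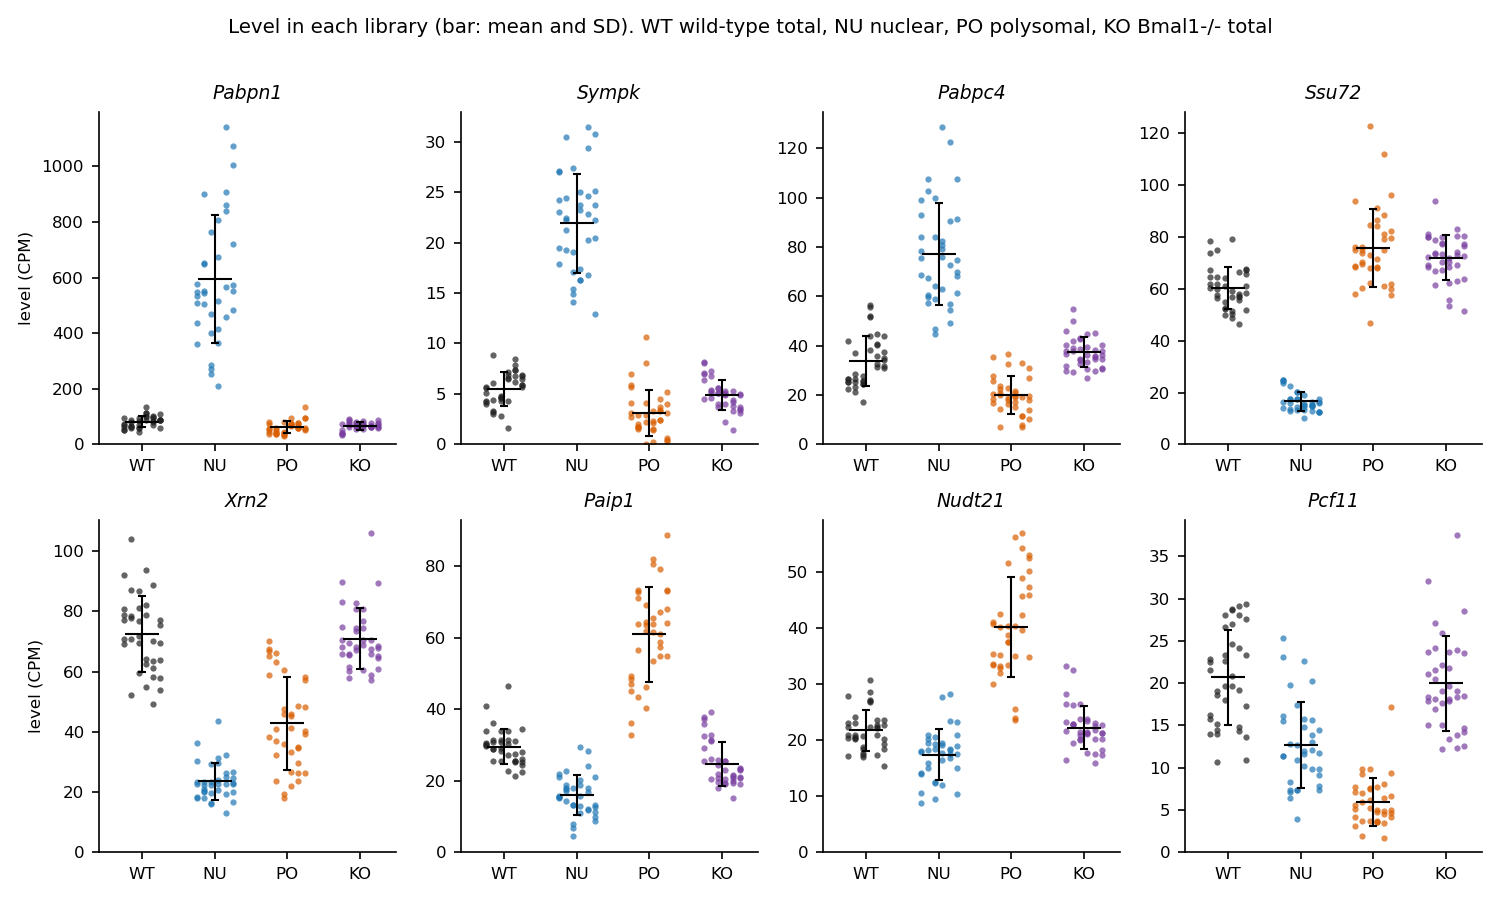
Level in CPM (linear y axis from 0) of 8 genes in wild-type total (WT), nuclear (NU), polysomal (PO) and Bmal1-/- total (KO) RNA, with 1 point per library and the mean with SD in black (n = 36 each). Pabpn1 and Sympk in nuclear RNA lie above all total RNA libraries, Ssu72 and Xrn2 in nuclear RNA lie below them, and Pcf11 in polysomal RNA lies below the lowest total library in 35 of 36 libraries.

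Set directly against each other, polysomal and nuclear RNA differed for 28 of the 34 genes, where 81.9% of all 11244 genes passed. They were 11 higher in polysomal RNA (39.5% of all genes) and 17 lower (42.5%), with a median of -0.20 against -0.04 over all genes. With library totals as the scale, the median of all genes was 0.08. The libraries did not overlap for Pabpn1, Sympk, Ctr9, Pabpc4, Ssu72 and Paip1. The share of all genes without overlap is not given here, so this shows nothing particular to these genes. Pabpn1 changed by -3.29 (SE 0.13, adjusted p 1.2e-36), from a median of 550 to 59.4 CPM. Sympk changed by -2.94 (SE 0.17, adjusted p 9.94e-26), from a median of 22.3 to 2.78 CPM, with 1 polysomal library at 0 counts, which allows up to 0.607 CPM. Counted by its sites this difference too was smaller, as given further on. Ctr9 fell by 2.27 on the log2 scale, from a nuclear range of 25.3 to 58.1 CPM to a polysomal range of 1.59 to 19.7 CPM. Paip1 rose by 1.89 (SE 0.11, adjusted p 2.58e-27), from a nuclear range of 4.55 to 29.5 CPM. Paip2b (1.52, SE 0.19, adjusted p 2.48e-11) and Zc3h14 (1.49, SE 0.11, adjusted p 7.16e-22) were higher as well. Pabpc4 was lower by 2.01 on the log2 scale, while its paralog Pabpc1 was lower by 0.81. By replicate set, Cstf3 changed by 0.61 in replicates 1 to 3 (adjusted p 0.000578) and by -0.47 in replicates 4 to 6 (adjusted p 0.00599), and Cpsf2 by 0.49 (adjusted p 0.0109) and -0.32 (adjusted p 0.0284). These comparisons share the same nuclear and polysomal libraries with those above and are not separate evidence.

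Several of these levels depended on whether reads are taken from the gene row or summed over the gene's polyadenylation sites, and on how the sums are scaled, which are alternatives added after seeing the data. For Ssu72 the summed sites held 1.06 times the counts of the gene row in wild-type total RNA and 3.58 times in nuclear RNA. In nuclear libraries the row averaged 66.9 counts and the sites 239, with a mean of 78.2% at an upstream site. The row thus left out most counts of that upstream site, and the summed sites include them. Ssu72 by its sites stood at 63.8 CPM ± 8.02 in total RNA, 59.9 ± 16.2 in nuclear RNA and 70.4 ± 14.1 in polysomal RNA (SD, n = 36 each). These levels use the TMM factors of the gene rows, as elsewhere. With those factors the summed sites of Ssu72 changed by -0.14 in nuclear RNA (adjusted p 0.0650) in place of -1.91, by 0.18 from nuclear to polysomal RNA (adjusted p 0.0392) in place of 2.13, and by 0.15 in polysomal against total RNA (adjusted p 0.0155). With TMM factors computed from the summed sites, the same changes were 0.14 (adjusted p 0.0899), -0.14 (adjusted p 0.134) and 0.04 (adjusted p 0.531). The sign of these small changes thus depended on the scaling. With the factors of the gene rows the median of all genes counted by sites was -0.25 for nuclear against total RNA, 0.30 for polysomal against nuclear RNA and 0.11 for polysomal against total RNA, and with the factors of the sites it lay between -0.01 and 0.02.

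For other members the 2 scalings of the summed sites are given in that order, gene-row factors first. Pabpc4 was lower in polysomal RNA by its gene row (-0.75) and higher by its only site (0.66, adjusted p 1.34e-06, and 0.56, adjusted p 4.08e-05). The site held 0.877 times the counts of its row in total RNA and 2.29 times in polysomal RNA, and it lies 531 bp from the annotated gene start. In nuclear RNA Scaf8 went from -0.13 by its row to 1.11 and 1.38 by sites. Rbbp6, a scaffold with a ubiquitin ligase domain that joins CPSF, went from 0.17 to 1.06 and 1.34, and Cstf3 from 0.09 to 0.68 and 0.95, all past the test. Cpsf6 changed in nuclear RNA by 0.12 (adjusted p 0.199) and 0.39 (adjusted p 5.06e-05) in place of 1.0, and between polysomal and nuclear RNA it lost its call under both (0.09, adjusted p 0.488, and -0.22, adjusted p 0.0888). Nudt21 changed in nuclear RNA by -0.30 (adjusted p 0.00337) and -0.03 (adjusted p 0.742), and its polysomal rise passed under both (1.09 and 0.99). The polysomal calls were lost under both for Sympk (-0.32, adjusted p 0.219, and -0.43, adjusted p 0.0909), Scaf8 (-0.11, adjusted p 0.488, and -0.21, adjusted p 0.166) and Cstf3 (0.14, adjusted p 0.262, and 0.03, adjusted p 0.820). Pabpn1 in nuclear RNA (2.79 and 3.07), Xrn2 in nuclear RNA (-2.20 and -1.93), Paip1 in polysomal RNA (1.06 and 0.96) and Pcf11 in polysomal RNA (-1.12 and -1.21) passed in the same direction as by their rows.

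The usage of a site is the percentage of its gene's site counts that fell on it. Of the 33 genes with sites, 29 had at least 2 and 4 had 1, with up to 9 in a gene. In 24 genes, 76 of the 137 sites lay more than 1000 bp before the annotated end of the gene. Paip2 had no usable site, since its sites also fall in the span of Slc23a1. A site entered the test when it held 5% or more of the gene's site counts and the gene averaged 50 or more site counts per library. No genome sequence or exon annotation was used here, so the positions below are distances to the annotated gene ends, and whether a site lies beside a genomic stretch of A was not tested.

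Between nuclear and total RNA, 51 of 75 tested sites of these genes, in 17 genes, changed in usage, where 78.6% of all 12046 sites did. Upstream sites did not move one way: of the sites more than 1000 bp before the gene end, 12 were higher and 15 lower in nuclear RNA, and of the sites nearer the end 9 were higher and 15 lower. Ssu72 has an upstream site at chr4:155714595-155714647, 19232 bp before the gene end, and a site at chr4:155733551-155733793, 86 bp before it, both on the plus strand. The end site took 83.0% to 96.8% of the counts (median 87.5%) in total RNA libraries. In nuclear libraries it took 12.7% to 42.7% (median 20.2%), and in polysomal libraries 94.2% to 100% (median 98.4%). The nuclear libraries overlapped with neither of the other sets. For the upstream site the means were 12.4% ± 3.01 in total, 78.2% ± 7.37 in nuclear and 1.76% ± 1.69 in polysomal RNA (SD, n = 36 each). The log2 change in usage of the end site was -2.05 (SE 0.07, adjusted p 1.39e-37) for nuclear against total RNA and 2.21 (SE 0.07, adjusted p 3.05e-38) for polysomal against nuclear RNA. A gene antisense to Ssu72, 1500002C15Rik, spans its end site and not the upstream one.

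Pabpc1 was counted more at a site close to its start in both fractions. This site, at chr15:36608856-36608924 on the minus strand, lies 657 bp from the gene start and 13198 bp before its end. It took 23.0% to 47.5% of the counts (median 36.4%) in total RNA libraries, 76.6% to 95.4% (median 89.9%) in nuclear libraries and 58.0% to 93.8% (median 82.0%) in polysomal libraries. Both fractions thus lay above total RNA without overlap, with log2 changes in usage of 1.26 (SE 0.04, adjusted p 1.24e-40) and 1.11 (SE 0.04, adjusted p 5.12e-32). The site 226 bp before the Pabpc1 end went from a mean of 43.1% in total RNA to 4.84% in nuclear and 8.90% in polysomal RNA. The summed site counts of Pabpc1 in both fractions are thus mostly counts at the site near its start. They were 0.949 times the counts of its row in nuclear and 0.988 times in polysomal RNA.

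Rbbp6 showed opposite moves of neighbouring upstream sites. The site at chr7:122972802-122972865 on the plus strand, 29707 bp before the end, took a mean of 23.3% ± 7.23 in total RNA, 53.8% ± 11.3 in nuclear RNA and 5.60% ± 4.95 in polysomal RNA (SD, n = 36 each). Its nuclear and polysomal libraries did not overlap (log2 change -3.38, SE 0.18, adjusted p 1.63e-25). The site at chr7:122970824-122970928, 31644 bp before the end, went the other way, with 31.9% ± 8.79 in total RNA, 18.4% ± 7.46 in nuclear RNA and 56.2% ± 11.6 in polysomal RNA. Cdc73 used the site 341 bp before its end more in nuclear RNA, at 58.2% ± 20.1 against 27.7% ± 9.90 (log2 change 0.98, SE 0.12, adjusted p 1.58e-11), and its ranges overlapped. The site shares of Cdc73 in nuclear libraries rest on a mean of 23.8 counts, so single libraries are imprecise.

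In polysomal against total RNA, 48 of 81 tested sites in 19 genes changed in usage, where 70.5% of all 12786 sites did. Of those more than 1000 bp before the gene end, 9 were higher and 16 lower, and of those at the end 13 were higher and 10 lower. Scaf8 used its end site, 9 bp past the annotated end, at a mean of 42.4% ± 25.7 in polysomal RNA against 5.98% ± 3.60 in total RNA (SD, n = 36 each; log2 change 2.75, SE 0.22, adjusted p 1.12e-17). In nuclear RNA it took 6.16% ± 5.50, and the site 40990 bp before the end took 50.8%. Wdr33 used a site 1636 bp before its end at 41.5% ± 19.7 in polysomal and 15.5% ± 5.57 in total RNA (log2 change 1.40, SE 0.15, adjusted p 2.28e-12). The Scaf8 and Wdr33 shares in polysomal libraries rest on means of 41.1 and 46.1 site counts, and the ranges overlapped for both. For polysomal against nuclear RNA, 41 of 59 tested sites in 14 genes changed, where 65.3% of all 10568 sites did.

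**Figure D3:**
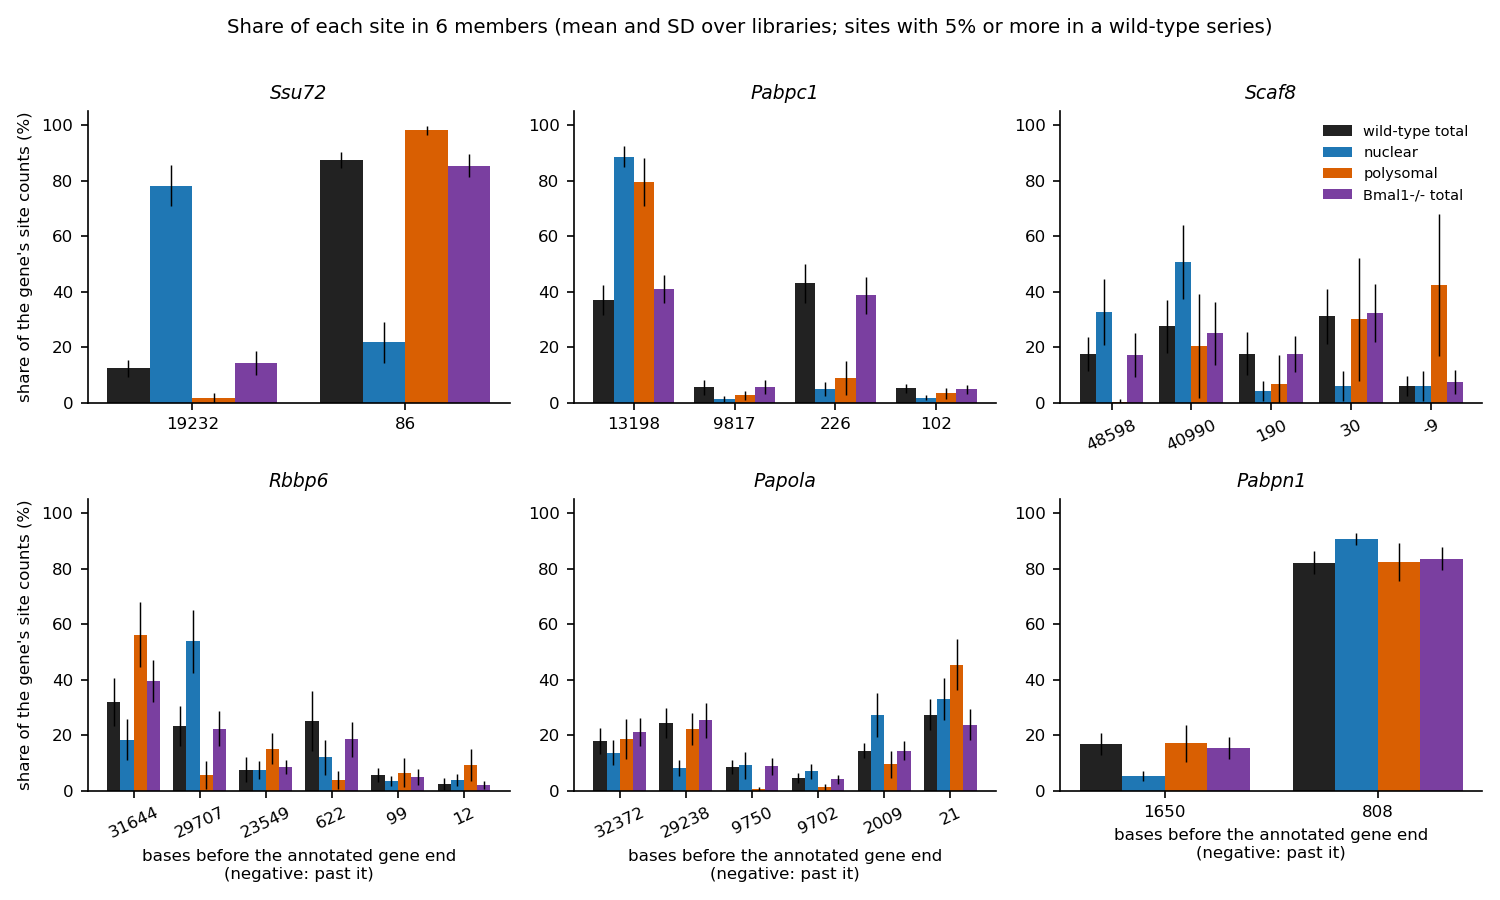
Mean share of site counts (y axis, percent) at the sites of 6 genes in the 4 sets of libraries (bars with SD, n = 36 each), for sites with 5% or more in a wild-type set. The x axis gives each site's distance in bases to the annotated gene end, not to scale. The upstream site of Ssu72 takes 78.2% in nuclear RNA against 12.4% in total RNA, and the site of Pabpc1 near its start takes 88.7% in nuclear and 79.7% in polysomal RNA against 37.0% in total RNA.

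The study followed the liver over the day, and most of these genes, like most of all genes tested, were not called rhythmic. In wild-type total RNA 4 of the 34 genes were rhythmic, Leo1, Cpsf6, Xrn2 and Cstf2, where 18.9% of all 11964 genes were (6 of the 34 at an unadjusted p under 0.05). The median peak-to-trough ratio of the fitted curve was 1.17 for the 34 genes and 1.25 for all genes. These medians were 1.183 and 1.257 in nuclear RNA and 1.347 and 1.355 in polysomal RNA. In nuclear RNA 1 of 33 genes tested was rhythmic (5.99% of all genes), in polysomal RNA 1 of 34 (7.9%), and in both it was Leo1. Paip2b was too low for the test in nuclear RNA. In Bmal1-/- total RNA edgeR called 0 of 34 (0.00825% of all genes), with 3 at an unadjusted p under 0.05, and DESeq2 also called 0.

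Leo1 had the widest swing in wild-type total RNA. Its mean was 18.9 CPM at ZT2, 13.5 at ZT6, 7.96 at ZT10, 17.3 at ZT14, 20.9 at ZT18 and 19.4 at ZT22 (n = 6 each). The libraries at ZT10 ran from 5.40 to 11.01 CPM and those at ZT18 from 17.6 to 24.3 CPM, without overlap. The fitted peak was at ZT21.0 with a ratio of 2.16 (adjusted p 0.000821), and in replicates 1 to 3 or 4 to 6 alone the ratios were 2.10 (adjusted p 0.0646) and 2.17 (adjusted p 0.0741). The low point at ZT10 was also found in nuclear RNA, with a mean of 2.59 CPM against 8.75 at ZT2 (ratio 2.73, adjusted p 0.0199), and in polysomal RNA, with 1.48 against 6.87 CPM (ratio 2.97, adjusted p 0.0175). By summed sites the nuclear rhythm of Leo1 lost its call (ratio 2.25, adjusted p 0.112), as did the polysomal rhythm without polysomal replicate 1 (3.05, adjusted p 0.0539).

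In Bmal1-/- total RNA the mean of Leo1 lay between 24.8 and 29.8 CPM at all 6 times, with a fitted ratio of 1.14. At ZT10 its Bmal1-/- libraries ran from 24.9 to 29.8 CPM, all above the wild-type libraries of that time. The rhythm differed between the genotypes by a test of the interaction (adjusted p 0.000894), and in replicates 1 to 3 or 4 to 6 alone the adjusted p for Leo1 was 0.132 and 0.0810. It was the only one of the 34 genes past that test, where 5.11% of all 12082 genes were. For Xrn2 the same test gave an adjusted p of 0.05003, just above the threshold, and 0.0281 with DESeq2. Against wild-type total RNA, edgeR found a different rhythm in nuclear RNA for 0 of the 34 genes (0.0% of all genes; 2 at an unadjusted p under 0.05) and in polysomal RNA for 0 (0.0% of all genes; 5 at an unadjusted p under 0.05), and DESeq2 called 0 in both.

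Xrn2 peaked in the late light phase of wild-type total RNA, with means of 71.9 CPM at ZT2, 77.2 at ZT6, 90.1 at ZT10, 69.9 at ZT14, 61.5 at ZT18 and 64.4 at ZT22. Its fitted ratio was 1.37 with a peak at ZT8.1 (adjusted p 0.00145). In replicates 4 to 6 alone the ratio was 1.43 for Xrn2 (adjusted p 0.0770) and 1.33 for Cpsf6 (adjusted p 0.160). In polysomal RNA the ratio of Xrn2 was 1.63 (adjusted p 0.103), in nuclear RNA 1.16 (adjusted p 0.808) and in Bmal1-/- 1.02. Cpsf6 peaked early in the dark, at 25.2 CPM at ZT14 against 18.7 at ZT6 (ratio 1.32, adjusted p 0.0013), with libraries of 22.5 to 27.8 CPM at ZT14 and 16.2 to 21.8 CPM at ZT6, without overlap. In Bmal1-/- its ratio was 1.23 (unadjusted p 0.00766), and its rhythm did not pass the test of a difference (adjusted p 0.594). Cstf2 peaked at ZT22.6 with a ratio of 1.32 (adjusted p 0.0390). Its adjusted p was 0.0516 without the wild-type library at ZT2 that stood apart, and by summed sites 0.102.

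**Figure D4:**
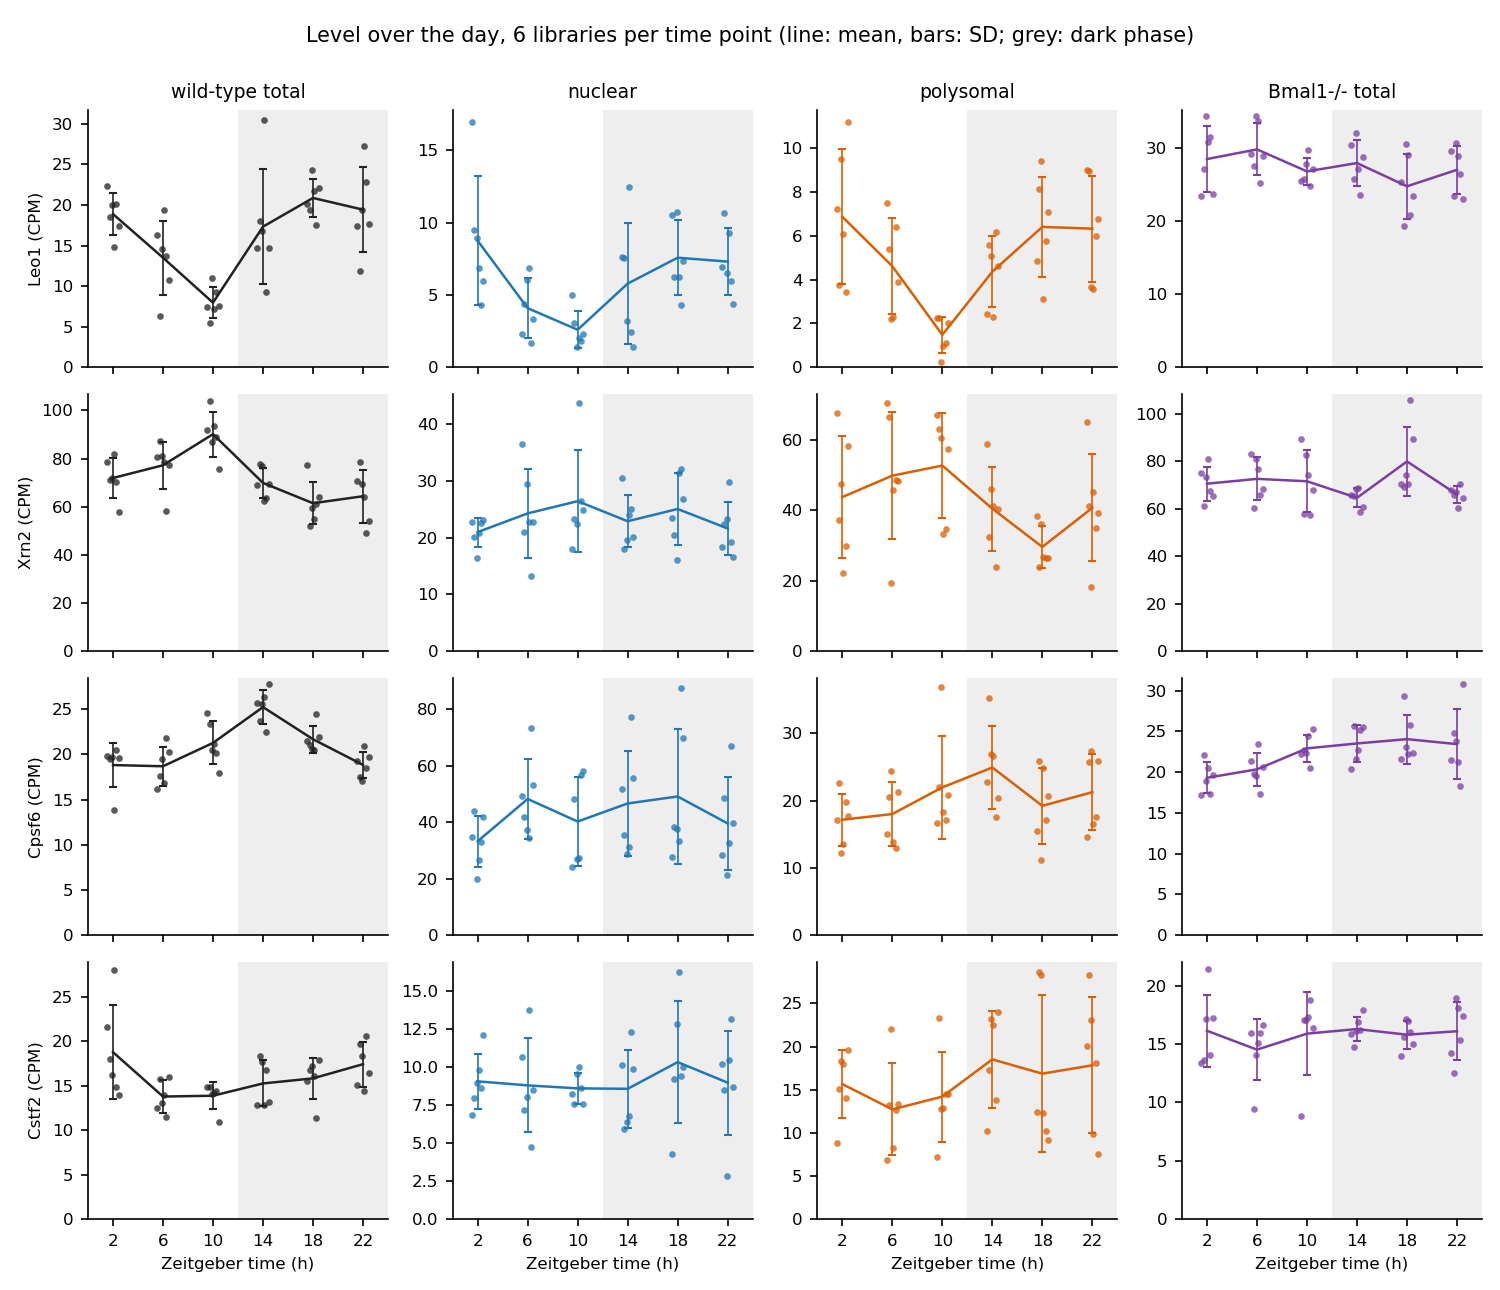
Level in CPM (y axis) of Leo1, Cpsf6, Xrn2 and Cstf2 at the 6 zeitgeber times (x axis, hours) in the 4 sets of libraries, with 1 point per library and means with SD (n = 6 each). Each panel has its own y axis from 0, and grey marks the dark phase. Leo1 falls to 7.96 CPM at ZT10 in wild-type total RNA and stays between 24.8 and 29.8 CPM in Bmal1-/- total RNA.

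A stretch before a start of Leo1 and of Xrn2 are shown because these genes gave the smallest p-values for a rhythm that differs between the genotypes. They are the 250 bases before the start that the RefSeq promoter table uses for each gene (GRCm38.p6), on the plus strand. That start lies inside the gene's full annotated span for both, so these stretches are not upstream of every annotated start. The first is chr9:75441274-75441523 and the second chr2:147012749-147012998. Capitals mark the only match to the motifs searched, on the plus strand 63 to 57 bases before that start of Leo1.
Leo1: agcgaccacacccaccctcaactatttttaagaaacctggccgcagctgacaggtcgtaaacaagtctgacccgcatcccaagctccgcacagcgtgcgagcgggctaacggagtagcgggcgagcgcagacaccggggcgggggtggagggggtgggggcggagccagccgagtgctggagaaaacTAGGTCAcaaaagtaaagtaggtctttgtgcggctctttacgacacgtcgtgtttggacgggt
Xrn2: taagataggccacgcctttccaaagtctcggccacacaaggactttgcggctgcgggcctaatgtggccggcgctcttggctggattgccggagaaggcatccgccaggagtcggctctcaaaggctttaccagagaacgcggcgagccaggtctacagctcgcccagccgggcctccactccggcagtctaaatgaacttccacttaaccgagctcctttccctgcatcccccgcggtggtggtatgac
Both strands were searched for the E-box CACGTG, which BMAL1 binds with CLOCK, the D-box TTATGTAA, which PAR bZIP factors bind, and TAGGTCA, the core of elements bound by REV-ERB and ROR receptors. These letters do not overlap one another in the sequences shown. The RefSeq table held such a stretch for 29 of the 34 genes. TAGGTCA was in 2 of these 29, Leo1 and Cpsf2, and in 2.23% of all 32851 promoters. The E-box was in 1, Cstf1, and in 6.02% of all promoters, and the D-box in 0 of 29 and in 0.819%.

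Rhythm in site usage was tested in wild-type total RNA. Of 96 tested sites in these genes 0 were rhythmic with edgeR, where 0.352% of all 13358 sites were, and 7 had an unadjusted p under 0.05. No other tool was run on usage. The lowest adjusted p among them, 0.107, belonged to a site of Rbbp6.

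In Bmal1-/- livers several of these transcripts were higher by small amounts and Leo1 by more. Of the 34 genes, 12 differed in level between Bmal1-/- and wild-type total RNA, where 44.2% of all 12082 genes did. They were 10 higher (21.7% of all genes) and 2 lower (22.4%), with a median log2 change of 0.09 against -0.00075 over all genes tested. In replicates 1 to 3 alone 10 were higher and 0 lower, and in replicates 4 to 6 alone 4 were higher and 4 lower. Of all genes called in these sets, 49.9% and 50.7% were higher. The shares of all genes called in each set are not given here, so these counts show nothing particular to these genes. The libraries overlapped for every one of the 34 genes, and the share of all genes for which they did is not given here. With library totals in place of TMM factors, added after seeing the data, the median of all genes moved to 0.10, 22 of the 34 genes were higher and 2 lower, and the share of called genes that were higher went from 49.2% to 71.7%.

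Leo1 ran from 5.40 to 30.4 CPM (median 17.5) in wild-type and from 19.4 to 34.4 CPM (median 27.4) in Bmal1-/- libraries, with a log2 change of 0.80 (SE 0.07, adjusted p 5.25e-15). It was higher at all 6 times. Ssu72 ran from 46.5 to 79.3 CPM (median 59.5) in wild-type and from 51.5 to 94.0 CPM (median 72.7) in Bmal1-/- (log2 change 0.24, SE 0.05, adjusted p 1.14e-05), again higher at all 6 times. By its sites the change of Ssu72 was 0.31 (adjusted p 8.58e-08). Pabpc1 rose from a median of 329 to 419 CPM (log2 change 0.33, SE 0.08, adjusted p 0.000464), and in replicates 4 to 6 alone by 0.10 (adjusted p 0.516). Papolg rose from 2.93 to 3.67 CPM (0.29, SE 0.10, adjusted p 0.0157), and in replicates 4 to 6 alone by 0.20 (adjusted p 0.231).

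CPSF had 5 of 7 members higher in Bmal1-/- (Cpsf1, Cpsf2, Cpsf4, Fip1l1 and Wdr33), each by 0.21 or less, and Cpsf3 (0.10) and Sympk (-0.18) without a call. Sympk differed by replicate set: in replicates 1 to 3 its mean was 4.64 CPM in wild-type and 5.82 CPM in Bmal1-/- (log2 change 0.31, adjusted p 0.0543), and in replicates 4 to 6 it was 6.39 and 4.04 CPM (-0.67, adjusted p 0.000785). The difference between the replicate sets was not tested. Cpsf1 had an adjusted p of 0.055 without the Bmal1-/- library with Xist, and Cpsf4 changed by 0.01 in replicates 1 to 3. By summed sites, scaled by their own factors, the calls for Cpsf2 (0.15, adjusted p 0.122), Cpsf4 (0.18, adjusted p 0.0698) and Fip1l1 (0.05, adjusted p 0.485) were lost, as was that for Cdc73 (0.13, adjusted p 0.139). With the factors of the gene rows they were lost for Cpsf1 (0.11, adjusted p 0.0607) and Wdr33 (0.12, adjusted p 0.120) too. No member of cleavage factors I and II or of CstF was called, with Cpsf6 at 0.09 and Cpsf7 at 0.10 and with Cstf2 and Cstf2t both at -0.01. Cdc73 (0.14) and Leo1 were higher in the PAF1 complex. Pabpn1 fell from a median of 84.1 to 67.4 CPM (log2 change -0.30, SE 0.08, adjusted p 0.0013) and Paip1 from 29.5 to 23.1 CPM (-0.28, SE 0.07, adjusted p 0.00128). Both were lower at all 6 times. In replicates 1 to 3 alone Pabpn1 changed by -0.13 (adjusted p 0.457) and Paip1 by -0.16 (adjusted p 0.198). Other paralogs without a call were Pabpc4 (0.14, and 0.54 in replicates 1 to 3 alone, adjusted p 1.14e-05), Papola (0.05), Paip2 (-0.10), Paip2b (0.23), Scaf4 (0.12) and Scaf8 (0.12).

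Markers of other cell types differed between the genotypes as well. Of 6 Kupffer cell markers 5 were lower in Bmal1-/-, with summed levels of 87.5 to 463 CPM against 147 to 822 CPM in wild-type libraries. Of 5 bile duct markers 2 could be tested and both were higher, with sums of 45.3 to 132 CPM against 16.6 to 67.9 CPM. Of 3 red cell markers 2 were lower, with sums of 15.9 to 3447 CPM against 333 to 5785 CPM, and of 3 mitochondrial RNAs 2 were lower, with sums of 12738 to 27490 CPM against 20207 to 59254 CPM. Stellate cell markers had 2 of 5 higher and 2 lower, and endothelial markers 1 of 5 higher and 2 lower. None of these markers was at 0 in either set. Their part in the changes of these genes was not tested.

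Site usage differed little between the genotypes. In Bmal1-/- 4 of 99 tested sites in 3 genes changed, where 8.86% of all 13653 sites did. The upstream Rbbp6 site 31644 bp before the end rose from a mean of 31.9% to 39.5% (log2 change 0.32, SE 0.08, adjusted p 0.00306), and its share was higher at all 6 times. The Pabpc1 site near the start rose from 37.0% to 41.1% (0.15, SE 0.04, adjusted p 0.0103). The Cpsf2 site 478 bp before the end, chr12:102005404-102005515 on the plus strand, fell from 38.5% to 32.6% (-0.24, SE 0.08, adjusted p 0.0313). Ranges overlapped for all 3. The fourth called site, 622 bp before the Rbbp6 end, fell by 0.44 on the log2 scale (adjusted p 0.0195). In replicates 1 to 3 alone the adjusted p was 0.143 for the first Rbbp6 site, 0.0800 for Pabpc1 and 0.190 for Cpsf2.

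A wider list of 57 genes that work beside this machinery (the nuclear exosome, Integrator, mRNA export and others) gives the setting. In nuclear against total RNA 47 of 55 tested genes passed, 20 higher and 27 lower, where 83.8% of all genes did, with Snrnp70 of the U1 particle (2.52) and Thoc7 of the export complex THO (-2.41) at the ends. In polysomal against total RNA 47 of 56 passed, 23 higher and 24 lower, where 76.1% of all genes did, from Exosc5 of the exosome (1.97) to Zfc3h1, its nuclear adaptor (-2.69). Between Bmal1-/- and wild-type 16 of 56 passed, 11 higher and 5 lower, where 44.2% of all genes did, from Lsm11 (0.56), which processes histone transcripts, to the tail-extending enzyme Papd5 (-0.22). In wild-type total RNA 11 of 56 were rhythmic, where 18.9% of all genes were, and 2 of 56 had a rhythm that differed between the genotypes, where 5.11% did.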

How the data were processed

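Liver RNA libraries of QuantSeq 3′ mRNA sequencing were analysed from the deposited raw counts per gene and per polyadenylation site, with 1 column per library and 0 columns left without a sample. Per the labels' protocols, RNA was prepared with TRIzol and acid phenol-chloroform and cleared of DNA by DNase I. The submitters' processing notes name STAR 2.4.2a, edgeR and HOMER and the builds mm10 and GRCm38.p5. Which step used which tool or build, the strand setting and the site filter are not given in the sources used here.

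Groups and replicate numbers came from the sample titles. No library looked deposited more than once: 0 of 360 pairs within a group held the same counts, and a chi-square test of a pair's counts gave at least 4.03 per degree of freedom. Genes averaging 10 or more counts per library were fitted in R 4.3.3 with edgeR 4.0.16 (robust quasi-likelihood F tests, TMM factors, Benjamini-Hochberg adjustment, threshold 0.05). Sets of libraries were compared over the mean of their 6 time-point means, rhythm as a cosine and sine of 24 h, and a different rhythm as their interaction with the set. Filtered sites were given to genes of the RefSeq table (GRCm38.p6) within the gene or up to 1000 bp past its end. Of these, 736 sites in more than 1 gene were left out, and 798 because their gene's summed site counts were below 0.3 or above 1.5 times its row's. Usage was fitted on site counts, offset by the log of the gene's site total plus 0.5, for sites of 5% or more in genes averaging 50 or more site counts. The scripts were tested on simulated data.

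Named in full are, for each comparison of level, the 4 largest rises and the 4 largest falls among called members, each member rhythmic in wild-type total RNA, the 4 largest called usage differences (1 site per gene), and paralog pairs side by side. The members and lists were chosen with earlier results of these data known. Alternatives were replicates 1 to 3 or 4 to 6 alone, the replicate number as a block, median-ratio size factors, DESeq2 1.42.0, a lower count minimum, higher usage minimums, and leaving out libraries that stood apart. Library totals as the only scale and counts summed over sites, with TMM factors of the sums or of the gene rows, were added after seeing the data. Figures were drawn with matplotlib 3.10.9.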

Additional observations from a re-analysis of the deposited data

Results flagged for a closer look

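Among the 4 genes rhythmic in wild-type total RNA, 96 groups of 6 libraries were checked for a library whose gap to its nearest neighbour took up most of the range of its group, and 9 had one. Chance gives this in about 5% of groups. For Cpsf6 these were wild-type total ZT2 replicate 4 at 13.8 CPM (the others 19.5 to 20.5), wild-type total ZT18 replicate 5 at 24.5 CPM (20.5 to 21.9) and polysomal ZT10 replicate 3 at 36.9 CPM (16.7 to 22.03). For Xrn2 they were wild-type total ZT6 replicate 5 at 58.4 CPM (77.2 to 87.1) and nuclear ZT10 replicate 4 at 43.8 CPM (17.9 to 26.4). For Cstf2 they were wild-type total ZT10 replicate 6 at 10.9 CPM (14.1 to 14.9), wild-type total ZT18 replicate 5 at 11.4 CPM (15.5 to 17.9), Bmal1-/- ZT6 replicate 2 at 9.47 CPM (14.1 to 16.7) and Bmal1-/- ZT10 replicate 1 at 8.85 CPM (16.4 to 18.8). For Leo1 no library stood out in this way, and its rhythm differed by genotype in a test of the interaction (edgeR's quasi-likelihood test with Benjamini-Hochberg adjustment, adjusted p 0.000894).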

How the results depend on the processing

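Of 563 values of 65 named results under alternatives, 525 kept their direction and their side of the threshold, 30 lost the call, 6 gained it and 2 changed sign. Both changes of sign were Ssu72 with counts summed over sites and scaled by the sites' own factors (0.14 for nuclear against total RNA and -0.14 for polysomal against nuclear RNA). With the factors of the gene rows they kept the sign (-0.14 and 0.18). Counts of members called stayed within 1.5 times in 107 cases and moved further in 24. The cause was not tested for the latter, except where fewer libraries or genes entered. With library totals alone, 24 members differed in level in Bmal1-/- in place of 12, and with summed sites and gene-row factors 6. With replicates 1 to 3 and 4 to 6 alone, rhythm was called for 2 and 0 members in wild-type total RNA, for 0 and 0 in nuclear RNA, for 0 and 0 in polysomal RNA, and a different rhythm in Bmal1-/- for 0 and 0. DESeq2 called 2 members rhythmic in nuclear RNA. A different rhythm in Bmal1-/- was called for 2 members with median-ratio size factors, with DESeq2, without the library with Xist above 100 CPM, and in the leave-one-out of wild-type ZT2 replicate 4 (2 in place of 1). That leave-one-out gave 1 site with rhythmic usage in place of 0. With a mean of at least 200 counts, 17 of 19 tested sites changed in usage in nuclear RNA, 17 of 25 in polysomal RNA and 15 of 15 between them. For polysomal against nuclear RNA the count was 25 with replicates 1 to 3 alone and 27 for sites of at least 10%. The shares of all genes or sites called under the alternatives in this section are not given here. None of these counts thus shows something particular to these genes. At a given time, nuclear and total libraries that share a number deviated together (mean correlation 0.349, over 0.1 in 34 of 36 pairs). For nuclear and total libraries with other numbers the mean was -0.0689. Levels were centred on the mean of each group, which largely sets this value from the first, so it is no separate check. Polysomal and total libraries that share a number did not deviate together (-0.132, over 0.1 in 1 of 36). Not all nuclear pairs passed, so the numbers were not taken as pairs in the main tests. The main test of nuclear against total RNA thus ignores a link that most of these pairs show. With the replicate block, 28 members differed in level in nuclear RNA in place of 26 (Paip2 at -0.26 and Rbbp6 at 0.20 gained the call), 5 members were rhythmic in polysomal RNA, 2 had a different rhythm in Bmal1-/-, and 10 member sites differed in usage in Bmal1-/-. Low nuclear counts limit Paip2b, Papolg and Clp1.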

Other observations

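The groups of the wider list of genes beside the polyadenylation machinery are described here by counts alone, to be read against all genes tested, of which 41.6% were higher and 42.1% lower in nuclear than in total RNA, 38.4% and 37.6% in polysomal than in total RNA, and 39.5% and 42.5% in polysomal than in nuclear RNA. Of 10 mRNA export genes, which carry finished transcripts out of the nucleus, 6 were lower and 2 higher in nuclear than in total RNA, with a median log2 change of -0.45, and 7 of 10 were higher and 2 lower in polysomal than in nuclear RNA. Nxt1, a partner of the export receptor, went from 2.52 CPM in nuclear to 15.3 CPM in polysomal RNA (log2 change 2.54, SE 0.13). Of 3 proteins of the U1 particle, which restrains early cleavage, 2 were higher and 0 lower in nuclear RNA, and 2 higher and 1 lower in polysomal than in total RNA. Snrnp70, the one lower in polysomal RNA, went from 50.4 CPM in total to 302 CPM in nuclear and 14.2 CPM in polysomal RNA. For Integrator, which ends short transcripts, 6 of 13 tested genes were higher and 5 lower in nuclear RNA, and 3 of 14 were higher and 7 lower in polysomal than in total RNA. These groups overlap in no gene with the 34 members, and nothing particular to a group was tested.

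In the 8 members with 2 or more sites and a mean of at least 50 site counts in every set of libraries, the median share of counts more than 1000 bp before the gene end was 31.4% in wild-type total RNA, 71.9% in nuclear RNA and 34.7% in polysomal RNA. Over all 2988 such genes it was 13.7%, 17.4% and 11.2%. The share was higher in nuclear than in total RNA for 3 of the 8 (Ssu72, Pabpc1 and Rbbp6), and for 34.9% of all 2988 genes. It was lower for Pabpn1 and Papola. Cpsf1, Cpsf7 and Paip1 had all their sites on the same side of that limit, so the median describes no common direction.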
